A study of Mus musculus with 10 samples.

Results

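Hemoglobin and the other erythroid transcripts were read in KPC orthotopic pancreatic tumors as a measure of how much red cell RNA each tumor carried. The listed genes were the adult α-globins Hba-a1 and Hba-a2 and the adult β-globins Hbb-bs and Hbb-bt. Also listed were the erythroid heme synthesis enzyme Alas2, the band 3 anion exchanger Slc4a1 and the α-globin chaperone Ahsp. A gene was taken when the mouse Ensembl identifier of its row, without the version number, carried that symbol. Of the 7 genes, 6 were found among the 55359 rows of the table, and all 6 were tested, with 24554 others whose mean over the tumors was at least 1 normalized count. Ahsp was matched to no row and was not analysed here. A normalized count is the number of reads of a gene divided by 1 size factor per tumor.

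The tumors grew from K8484, a KPC line of mouse pancreatic carcinoma that carries luciferase, in the pancreas of C57BL/6 mice (C57BL/6 J in the study's methods) of both sexes injected at 10 weeks of age. The mice in CTRL, called normoglycemic in the labels, drank regular water, and the mice in D30, called hyperglycemic, drank water with 30% dextrose for 14 days. The sample titles also hold the term PDX, commonly short for patient-derived xenograft, which conflicts with a mouse line. The origin given here follows the study's text, and the genes in the data carry mouse identifiers. Each group held 5 tumors, which the submitters describe as biological replicates independent of each other. All tumors grew from 1 cell line, so the replicates are host animals and not separate cancers, and red cells in them are the host's. The columns are named N1, N2, N4, N5 and N6, taken as CTRL by the letter of normoglycemic, and T1, T2, T4, T5 and T7, taken as D30 because it was the only other group. The direction of every difference rests on this reading. RNA was extracted from whole tumor, and more cells of a type cannot be told apart from more RNA per cell.

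Hemoglobin is a tetramer of α- and β-chains, each holding a heme group. Erythroid precursors in marrow and spleen transcribe the globin genes at very high levels, then lose the nucleus and keep globin mRNA for some time as reticulocytes in blood. Alas2 makes the first committed intermediate of heme in these cells, and Slc4a1 exchanges chloride for bicarbonate in the red cell membrane. In a solid tumor such transcripts are commonly read as a sign of blood in the sample. The factors GATA1, KLF1 and TAL1 drive the erythroid genes in nucleated precursors.

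The α-globin pair and the β-globin pair are near copies, which bears on how reads were split between their rows. In the GENCODE M21 transcripts, the coding sequences of Hba-a1 and Hba-a2 are both 429 bases long and differ at 1 base, C381T, with positions counted from 1 at the A of the start codon. Those of Hbb-bs and Hbb-bt are 444 bases long and differ at 1 base, C417T. The bases around each difference are shown because they are the only coding letters by which the rows can be told apart. The differing base is in capitals.
Hba-a1: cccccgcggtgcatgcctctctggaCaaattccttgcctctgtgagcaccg
Hba-a2: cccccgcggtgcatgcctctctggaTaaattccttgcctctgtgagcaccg
Hbb-bs: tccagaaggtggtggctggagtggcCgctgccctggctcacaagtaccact
Hbb-bt: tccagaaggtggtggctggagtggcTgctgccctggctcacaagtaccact

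Identical runs of 380 and 416 coding bases remain within the pairs. The study lists RSEM among its software but does not state how reads that match both copies were assigned. The level of each copy is therefore uncertain. The sum of a pair does not depend on that split if such reads were counted. Had they been dropped, the sums would be too low, possibly by unlike amounts in the α and β pairs. The globin shares and the ratios to globin given below carry this limit.

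RefSeq promoters (GRCm38.p6) were given for 5 of the genes and not for Slc4a1 or Ahsp. They were searched on both strands, over the 250 bases before the start, for 5 motifs. These were TATAA of the TATA box, CACCC, which KLF proteins bind, CCAAT of the box of that name, GATAA, the core bound by GATA factors, and CCACACCC, a longer site for KLF1 that holds the shorter one. GATAA was in all 5 promoters and in 22.6% of the 32851 promoters of the reference, TATAA in all 5 and in 22.8%, and CACCC in all 5 and in 52.0%. The globin promoters each had a TATAA 27 to 30 bases before the start. In Alas2 the matches lay farther off, at 207 bases and, on the other strand, 208 bases. CCAAT was in the 4 globin promoters and in 33.9% of the reference. CCACACCC was in that of Hbb-bs, 93 bases before the start, and in 3.2% of the reference. The promoters of an α gene, a β gene and the heme gene are shown, because these genes were all high in the same tumor, described next. Of each window, the longest stretch free of bases that M21 annotates as untranslated transcript is printed, with motif letters in capitals. For Hbb-bs this is the 83 bases next to the start, which leaves out its GATAA, 209 bases before the start, and its CCACACCC. For Alas2 the stretch ends 43 bases before the start, which leaves out its CACCC matches, at 40, 35 and 30 bases on the other strand.
Hba-a2, chr11:32296242-32296488 (+): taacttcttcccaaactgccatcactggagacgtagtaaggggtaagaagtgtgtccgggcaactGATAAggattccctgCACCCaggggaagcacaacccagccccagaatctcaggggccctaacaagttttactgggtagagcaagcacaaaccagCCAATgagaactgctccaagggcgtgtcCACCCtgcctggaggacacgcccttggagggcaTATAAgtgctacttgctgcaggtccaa
Hbb-bs, chr7:103827929-103828011 (-): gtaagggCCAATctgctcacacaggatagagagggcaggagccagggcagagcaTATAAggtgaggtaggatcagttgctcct
Alas2, chrX:150547167-150547374 (+): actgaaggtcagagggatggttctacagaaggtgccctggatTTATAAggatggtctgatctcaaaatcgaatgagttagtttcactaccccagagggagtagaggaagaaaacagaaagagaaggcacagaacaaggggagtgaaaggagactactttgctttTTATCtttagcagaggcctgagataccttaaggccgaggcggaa

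The longest run of letters shared by the Hba-a1 and Hba-a2 promoters was 247 of 250 bases, against 14 bases for Hbb-bs and Hbb-bt and 9 bases for Hba-a2 and Hbb-bs. These matches describe letters only.

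The D30 tumor T5 stood apart from the other tumors. It held 160594 adult globin reads of 33439013 recovered reads, a share of 0.480% (95% Wilson interval 0.478 to 0.483%, which covers counting error only). In the other 9 tumors the share lay between 0.0120% in T2 and 0.0356% in T7. T5 also had the fewest genes with a read, 20482 against 23446 to 25912. It was the highest tumor in 18.9% of all genes tested and the lowest in 18.4%, and T4 was the highest in 24.3%. Differences between the groups are therefore given with and without T5.

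Hba-a1 (ENSMUSG00000069919, GRCm38 chr11:32283511-32284465, plus strand) is the more abundant α-globin row. Its normalized counts in CTRL were 1633 in N1, 2538 in N2, 3036 in N4, 2220 in N5 and 2514 in N6. In D30 they were 2218 in T1, 1755 in T2, 2240 in T4, 83007 in T5 and 6164 in T7. T5 was 37.1 times the median of the other 9 tumors and 13.5 times the next highest tumor, T7, while T1, T2 and T4 lay within the range of CTRL. The D30 minus CTRL difference was 1.20 on the log2 scale (SE 0.831), with limma's adjusted p = 0.497 and a two-sided exact permutation p of 0.365. Without T5 the difference was 0.21 (SE 0.336, limma adjusted p = 0.797).

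Hba-a2 (ENSMUSG00000069917, chr11:32296489-32297298, plus strand) encodes the second adult α-chain copy. CTRL tumors had normalized counts of 251 in N1, 361 in N2, 516 in N4, 208 in N5 and 298 in N6. D30 tumors had 256 in T1, 198 in T2, 204 in T4, 9508 in T5 and 769 in T7. The order was that of Hba-a1 at the top, with T5 first and T7 second, and the groups overlapped. The log2 difference was 0.94 (SE 0.864, limma adjusted p = 0.628, exact permutation p = 0.556), and it was -0.06 without T5 (SE 0.409, limma adjusted p = 0.962). The ratio of Hba-a1 to Hba-a2 was 8.73 in T5 and 5.88 to 11.0 in the other tumors.

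Hbb-bs (ENSMUSG00000052305, chr7:103826534-103828096, minus strand) is the main adult β-globin row. Normalized counts in CTRL were 2595 in N1, 2699 in N2, 3301 in N4, 2764 in N5 and 3231 in N6. In D30 the counts were 2528 in T1, 1901 in T2, 4305 in T4, 84522 in T5 and 4834 in T7. The D30 tumors T4, T5 and T7 lay above all CTRL tumors and T1 and T2 lay below them, so that the spread was wider in D30 even without T5, with 3392 ± 1400 (SD, n = 4) against 2918 ± 324 (SD, n = 5) in CTRL. The log2 difference was 1.07 (SE 0.781, limma adjusted p = 0.520, exact permutation p = 0.349), and 0.12 without T5 (SE 0.266, limma adjusted p = 0.857).

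Hbb-bt (ENSMUSG00000073940, chr7:103812524-103813996, minus strand) is its near copy. The CTRL values were 206 in N1, 209 in N2, 240 in N4, 266 in N5 and 293 in N6 normalized counts. The D30 values were 289 in T1, 171 in T2, 398 in T4, 6796 in T5 and 422 in T7. T4, T5 and T7 were above every CTRL tumor, as for Hbb-bs, and T2 was below every one. The log2 difference was 1.22 (SE 0.750, limma adjusted p = 0.435, exact permutation p = 0.151), and 0.32 without T5 (SE 0.280, limma adjusted p = 0.597).

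Alas2 (ENSMUSG00000025270, chrX:150547375-150570638, plus strand) overlaps Apex2 and Mir3620 on the other strand. Its normalized counts were 157 in N1, 193 in N2, 205 in N4, 174 in N5 and 181 in N6. Among D30 tumors they were 180 in T1, 98.5 in T2, 97.2 in T4, 4050 in T5 and 197 in T7. T5 was 22.5 times the median of the other tumors and 19.8 times the next highest, N4, and T2 and T4 were below all CTRL tumors. The log2 difference was 0.57 (SE 0.808, limma adjusted p = 0.770, exact permutation p = 0.897), and -0.41 without T5 (SE 0.272, limma adjusted p = 0.469).

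Slc4a1 (ENSMUSG00000006574, chr11:102348824-102366203, minus strand) was the lowest member and did not follow the globins. CTRL tumors had 32.6 in N1, 27.5 in N2, 21.9 in N4, 93.8 in N5 and 47.9 in N6 normalized counts. D30 tumors had 16.5 in T1, 19.5 in T2, 2.31 in T4, 145 in T5 and 20.2 in T7. The 4 D30 tumors other than T5 were all below the 5 CTRL tumors, and T5 was above them all, at only 1.55 times N5. T4 rested on 2 reads, fewer than the 3 reads used as a floor, and a fitted difference that includes it depends on the added count of 1. The log2 difference was -0.96 (SE 0.797, limma adjusted p = 0.584, exact permutation p = 0.341), and -1.67 without T5 (SE 0.614, limma adjusted p = 0.180, unadjusted p = 0.0195).

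**Figure D1:**
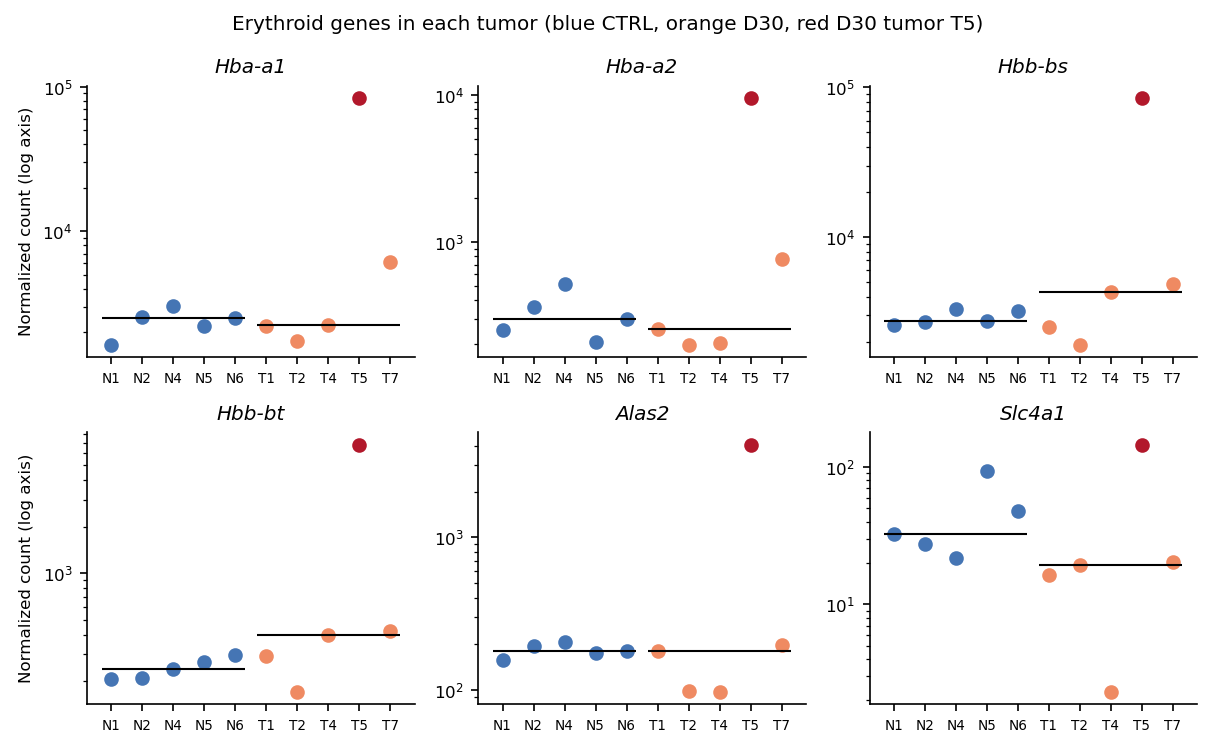
Normalized count (log axis) of the 6 erythroid genes in each of the 10 tumors, with 1 point a tumor and lines at the group medians. T5 is the highest point in every panel; for Slc4a1 it is 1.55 times the next tumor, N5, and for the other 5 genes at least 12.4 times the next.

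None of the 6 genes passed the test between D30 and CTRL, against 2.76% of all genes tested (1.4% higher and 1.36% lower in D30). By limma 0 of 6 also had an unadjusted p under 0.05, against 17.3% of all genes, and edgeR's quasi-likelihood test on recovered reads called 0 of 6, against 4.13%. DESeq2 gave an adjusted p for 1 of the 6, Slc4a1, which was not called, and NA for the other 5, where 8.76% of the genes with a value were called. The size of the difference depended on the method. By edgeR the log2 differences were 3.02 for Hba-a1, 2.76 for Hba-a2, 2.77 for Hbb-bs, 2.75 for Hbb-bt, 2.37 for Alas2 and -0.12 for Slc4a1, and DESeq2 gave 2.75 for Hbb-bs, 2.35 for Alas2 and -0.14 for Slc4a1. The count stayed at 0 without each tumor in turn, against 3.54% of all genes called without T5. The median log2 difference of the 6 genes was 1.01 with all tumors and 0.03 without T5, beside -0.06 and -0.05 over all genes tested. Library-size scaling in place of the authors' size factors moved the median of all genes to -0.27 and the calls over all genes from 344 higher and 334 lower to 240 higher and 625 lower, and upper-quartile scaling moved the median to -0.21. The sign of each of the 6 differences was the same under both.

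**Figure D2:**
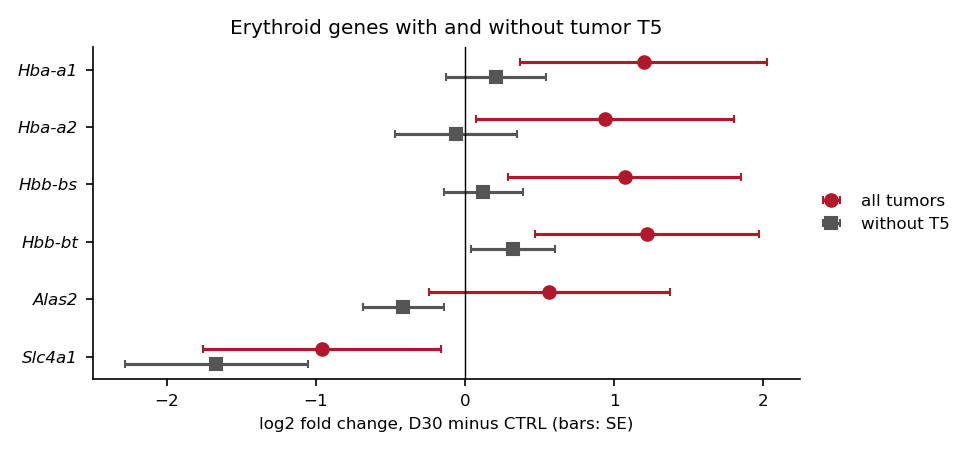
Log2 fold change, D30 minus CTRL, of the 6 genes (points, with bars of 1 SE) from limma with all tumors and without T5. Without T5 the estimates run from -1.67 for Slc4a1 to 0.32 for Hbb-bt, and the signs of Hba-a2 and Alas2 turn.

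The globin chains were close to balanced in T5. The summed α-chain count over the summed β-chain count was 1.01 there, between the lowest value, 0.520 in T4, and the highest, 1.32 in T7, of the other tumors. Alas2 stood at 22.0 normalized counts per 1000 adult globin counts in T5, within the 13.6 to 34.0 of the other tumors. In the CTRL tumors this ratio was 28.5 to 33.5, so that T2, T4, T5 and T7 were all below CTRL and T1, at 34.0, was above. Slc4a1 stood at 0.791 per 1000 globin counts in T5 and at 3.09 to 17.2 in CTRL. Among the D30 tumors it was 0.324 in T4, 1.66 in T7, 3.11 in T1 and 4.84 in T2. Relative to globin, Slc4a1 was thus lower in T4, T5 and T7 than in any CTRL tumor.

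Per length, over 1 annotated transcript of each gene (699 bases for Hba-a1 and 554 for Hba-a2), the median levels of the 9 tumors other than T5 ordered the genes as Hbb-bs (4401 normalized counts per kilobase), Hba-a1 (3205), Hba-a2 (462), Hbb-bt (379), Alas2 (88.3) and Slc4a1 (4.82). In T5 the order was the same, from 134589 for Hbb-bs to 32.0 for Slc4a1. The neighbors Hba-a2 and Hbb-bt overlapped in their ranges over tumors, as did Hbb-bs and Hba-a1, and the split of reads within each pair touches this order.

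T5 was at least 10-fold above the median of the other tumors (both with 1 added) in 5 of the 6 genes, the 4 globins and Alas2, and in 2.27% of all genes tested. This contrast was looked at after the values were seen and is a description. By this fold Hba-a1 ranked 28, Hba-a2 29, Hbb-bs 41, Hbb-bt 59, Alas2 84 and Slc4a1 1061 of the 24560 genes. In all, 557 genes were that far above in T5, and between 33 and 216 genes in each of the other tumors, so T5 differed from the rest in much more than erythroid genes.

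Over the 10 tumors, Hbb-bs was correlated on the log2 scale with Hba-a1 (Pearson's r = 0.98, permutation p = 0.00107, adjusted p = 0.00267; Spearman's rho = 0.84, permutation p = 0.00377, adjusted p = 0.0106) and with Hbb-bt (r = 0.99, permutation p = 8.0e-05, adjusted p = 0.000400; rho = 0.83, permutation p = 0.00426, adjusted p = 0.0106). With Hba-a2, r was 0.95 (permutation p = 0.00575, adjusted p = 0.00958) and rho 0.64 (permutation p = 0.0541, adjusted p = 0.0902). For Alas2, r was 0.95 (permutation p = 0.0302, adjusted p = 0.0378) and rho 0.55 (permutation p = 0.104, adjusted p = 0.130). For Slc4a1, r was 0.46 (permutation p = 0.206, adjusted p = 0.206) and rho 0.26 (permutation p = 0.470, adjusted p = 0.470). Adjustment was over these 5 relations. Hbb-bs and Hbb-bt are near copies whose rows may share reads, so part of their relation may come from how reads were split. Without T5 and T7, the 2 tumors farthest from the median of Hbb-bs, r was 0.54 for Hba-a1, 0.22 for Hba-a2, 0.84 for Hbb-bt, 0.03 for Alas2 and -0.44 for Slc4a1. None of these had an adjusted p under 0.05 (permutation test, adjusted p = 0.0581 for Hbb-bt), and rho was 0.67 for Hbb-bt and 0.69 for Hba-a1 but 0.29 for Hba-a2, 0.17 for Alas2 and 0.02 for Slc4a1. With 8 tumors no relation thus passed the test, that with Hba-a1 included (permutation test, adjusted p = 0.378). Both r and rho stayed above 0 for Hba-a1, Hba-a2, Hbb-bt and Alas2, and both were larger for Hba-a1 and Hbb-bt than for Hba-a2 and Alas2.

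**Figure D3:**
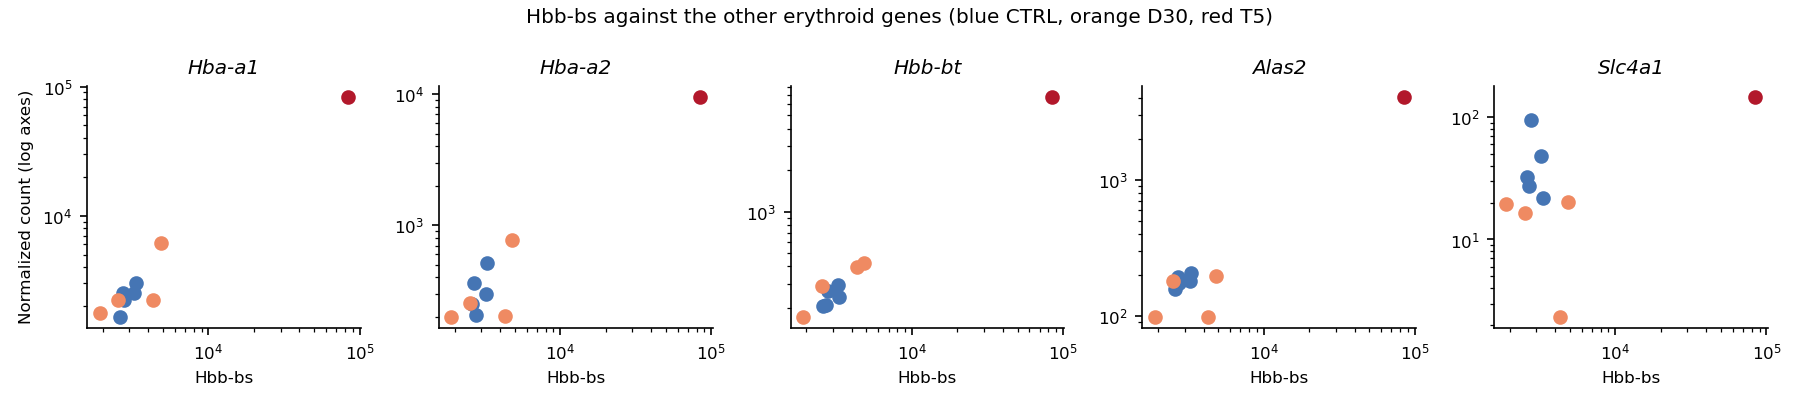
Normalized count of Hbb-bs (x axis) against that of the other 5 genes (y axes), both on log axes, with 1 point a tumor. T5 lies alone at the upper right; among the other 9 tumors Hbb-bt keeps a rising pattern with Hbb-bs and Slc4a1 does not.

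The genes whose pattern was most like that of Hbb-bs, by Pearson's r on the log2 scale over the 10 tumors, the members left out, were Cryab (r = 0.98), Stbd1 (0.97), Cox7a1 (0.97), Ghrh (0.97), Dusp1 (0.97), A930035D04Rik (0.96), Pim3 (0.96), Map3k6 (0.95), Jakmip3 (0.95) and Yif1b (0.95). T5 was the highest tumor in all 10. Cryab, a small heat shock protein, had 5412 normalized counts in T5 and 246 to 638 in the others. Dusp1, a MAP kinase phosphatase and immediate early gene, had 11543 in T5 and 530 to 1390 in the others. Over the 9 tumors without T5, r with Hbb-bs was 0.86 for Cryab, 0.87 for Ghrh and 0.19 for Map3k6.

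Other globin genes were nearly absent. Hbb-y, Hbb-bh0, Hbb-bh1, Hbb-bh2 and Hbb-bh3, the embryonic β-like genes and their relatives, were at 0 in all 10 tumors. The θ-like gene Hbq1b was the only one of the 8 matched genes that was tested. It had 26.3 normalized counts in T5, 10.7 in T7 and 0 to 4.11 in the others, with a log2 difference of 1.31 (limma adjusted p = 0.494), and 0.65 without T5 (0.732). The non-erythroid globins Cygb and Ngb, which are expressed in fibroblasts and neurons, were both lowest in T5, with Cygb at 132 against 205 to 660. Neither was called (0 of 2 tested).

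Transcripts of late red cells were split in T5. Of 20 late erythroid transcripts tested, T5 was the highest tumor in 9 and the lowest in 2, beside 18.9% and 18.4% of all genes. The tetraspanin Tspan33, of the red cell membrane list, had 793 normalized counts in T5 against 84.4 to 214 in the others, and Tent5c, a poly(A) polymerase, had 557 against 83.2 to 176. Car1, a carbonic anhydrase of red cells, had 6.87 in T5 and 0 to 2.66 in the others. Hemgn and Trim58, both of maturing erythroblasts, were at 0 in T5, with 0 to 11.6 and 1.71 to 12.6 in the others.

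Regulators of nucleated erythroid precursors were mixed in T5. Gata1, the master erythroid factor, was at 0 there and at 0 to 2.57 in the others. Gfi1b (0 to 12.7 in the others) and Bcl11a (0 to 13.7) were also at 0 in T5. So were the membrane genes Rhd (0 to 20.2 in the others) and Ermap (2.89 to 36.3). A count of 0 among the 33439013 reads of T5 allows up to 3 reads, or 3.43 normalized counts, and Gata1 was under that level in every tumor. Klf1 had 12.6 in T5, the lowest of the 10 tumors, where the others had 14.6 to 32.1. Tal1 had 5.72 against 28.6 to 74.4. Epor, the erythropoietin receptor, was highest in T5, at 117 against 29.9 to 77.1, and so was Nfe2, a factor of erythroid and megakaryocytic cells, at 84.7 against 10.6 to 63.0. Of 16 erythroid regulators tested, T5 was the highest tumor in 2 and the lowest in 4, beside 18.9% and 18.4% of all genes.

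Heme synthesis outside Alas2 did not follow the globins in T5. Of 15 genes tested, T5 was the highest tumor in 1, the mitochondrial iron importer Slc25a28 (6114 against 2220 to 4460), and the lowest in 3. Alas1, the housekeeping counterpart of Alas2, had 1668 in T5 and 2050 to 3144 in the others. Fech, which inserts the iron into heme, had 2383 in T5 and 2261 to 3309 in the others.

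**Figure D4:**
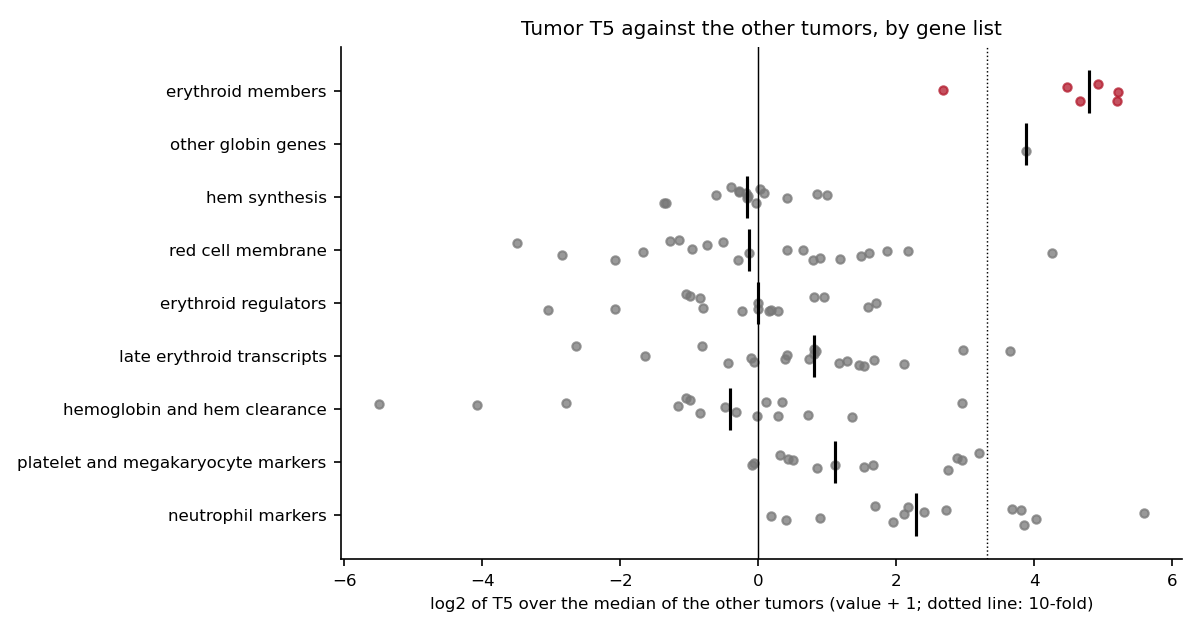
Log2 of the T5 value over the median of the other 9 tumors (both with 1 added) for the tested genes of each list, with 1 point a gene, black bars at list medians and a dotted line at 10-fold. The 4 globins and Alas2 lie beyond the dotted line, while the heme synthesis and regulator lists are spread around 0.

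Some markers of other blood cells were also high in T5. Over all genes tested, T5 was the highest tumor in 18.9%, the lowest in 18.4% and at least 10-fold above the median in 2.27%. Of 14 neutrophil markers, T5 was the highest tumor in 7 and at least 10-fold above the median in 5, namely S100a8, S100a9, Ngp, Mmp8 and Retnlg. Their summed level was 17814 normalized counts in T5, 961 to 4606 in CTRL and at most 9613 in the rest of D30. Retnlg had 2602 in T5 and 35.0 to 292 in the others. Of 13 platelet and megakaryocyte markers tested, T5 was the highest in 6 and in none 10-fold above. Ppbp, a platelet chemokine, had 237 in T5, 176 in T4 and 14.9 to 41.2 in the others, and Pf4 was highest in T4, at 4378 against 709 in T5. B cell and plasma cell markers were not high in T5 (highest in 0 of 12), and neither were T cell markers (0 of 10), endothelial markers (0 of 12) or macrophage markers (0 of 10, lowest in 7). The carcinoma epithelial markers summed to 597406 in T5, against 263463 to 499686 in the others. The part of these cell types in the globin result was not tested.

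None of the 15 lists had a mean level related to Hbb-bs over the 10 tumors at an adjusted p under 0.05. Pearson's r ran from -0.87 for the non-erythroid globins to 0.84 for the platelet and megakaryocyte markers (permutation test, adjusted p = 0.145 for both), and Spearman's rho from -0.44 to 0.53 (smallest adjusted p = 0.787, permutation test).

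Genes for the clearance of free hemoglobin and heme were read from a list of 17, of which 16 were tested. Hmox1, heme oxygenase, which opens the heme ring, had 13797 normalized counts in T5, 8051 in T4 and 1221 to 2785 in the others, with a log2 difference of 1.06 (SE 0.551, limma adjusted p = 0.349), and 0.58 without T5 (limma adjusted p = 0.545). Haptoglobin, Hp, which binds free hemoglobin, was highest in N4 with 2649 and had 847 in T5. Spic, a factor of red pulp macrophages, was at 0 in T5 and at 1.07 to 60.1 in the others. Of resident macrophage genes, Vsig4 was at 0 in T5 and T1 (up to 72.2 in the others). Timd4 was at 0 in T5, N1 and T4 (up to 16.0 in the others). Cd163, the macrophage receptor for the hemoglobin and haptoglobin complex, fell. It had 272 in N1, 416 in N2, 329 in N4, 265 in N5 and 259 in N6, and 35.0 in T1, 180 in T2, 106 in T4, 36.6 in T5 and 61.8 in T7, with no overlap of the groups. The log2 difference was -2.12 (SE 0.422, limma adjusted p = 0.0174), and -1.90 without T5 (limma adjusted p = 0.0270). Leaving out N2 ended this call (limma adjusted p = 0.0656). Groups did not overlap in 6.19% of all genes tested. Of the 10 macrophage markers 9 had a difference below 0, as did 13434 of all 24560 genes. The 1 called lower, beside 1.36% of all genes, was Csf1r, the receptor for the macrophage growth factor (limma adjusted p = 0.0449). This call was lost in 8 of the 10 fits that left out 1 tumor, all but those without T2 or T4 (at most 0.147 by limma, and 0.0724 without T5), and without a filter on low values. The summed level of the macrophage markers was 30926 to 61054 in CTRL and 14131 to 75579 in D30.

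Of the red cell membrane genes, 2 of 21 tested passed the test between D30 and CTRL, both lower in D30, beside 1.36% of all genes. Slc14a1, the urea transporter that carries the Kidd blood group, had 287 to 522 normalized counts in CTRL and 23.6 in T1, 40.1 in T2, 44.0 in T4, 118 in T5 and 65.0 in T7. Every D30 tumor was below every CTRL tumor, and the log2 difference was -2.90 (SE 0.383, limma adjusted p = 0.00210) and -3.21 without T5 (limma adjusted p = 0.000975). Aqp1, a water channel of red cells and of capillary endothelium, had 15883 to 22946 in CTRL and 7619 to 12021 in D30. Its log2 difference was -0.98 (SE 0.191, limma adjusted p = 0.0160), and -0.92 without T5 (0.0274). The call was lost without N2, N5 or N6 (highest adjusted p by limma 0.0627). The endothelial marker Cdh5, VE-cadherin, was also lower, at 4437 ± 1367 against 11945 ± 2931 (SD, n = 5 each). Its log2 difference was -1.45 (limma adjusted p = 0.0117), and -1.52 without T5. Of 12 endothelial markers 11 were below 0, as were 13434 of all 24560 genes. The summed endothelial level was 16740 to 25198 in CTRL and 9288 to 14601 in D30. The share of endothelial cells in the Aqp1 result was not tested.

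Of the 16 erythroid regulators 1 and of the 20 late erythroid transcripts 3 passed the test, all 4 higher in D30, beside 1.4% of all genes. Tfrc, the transferrin receptor that brings iron into erythroblasts and into any dividing cell, had 1532 to 2685 normalized counts in CTRL and 3355 to 5236 in D30 (log2 difference 1.10, SE 0.209, limma adjusted p = 0.0141). Car2, carbonic anhydrase of red cells and of ductal epithelium, had 256 to 530 in CTRL and 885 in T5 and 1346 to 2396 in the other D30 tumors (2.06, SE 0.300, limma adjusted p = 0.00391), so that T5 was the lowest of its group. Mkrn1, a ubiquitin ligase, had 1232 to 1600 in CTRL and 1974 to 3913 in D30 (0.96, SE 0.208, limma adjusted p = 0.0269). Bsg, basigin, a chaperone of lactate carriers on many cells, had 20188 to 31025 in CTRL and 36920 to 85585 in D30 (1.13, SE 0.247, limma adjusted p = 0.0281). Without T5 the differences were 1.03 for Tfrc, 2.27 for Car2, 0.82 for Mkrn1 and 0.94 for Bsg, all still called. The call of Tfrc was lost without N2 (limma adjusted p = 0.0549), that of Mkrn1 without N1, N2, N5, N6, T2 or T7 (at most 0.0969 by limma), and that of Bsg without N1, N2, N5, N6 or T7 (at most 0.0977 by limma). The call of Car2 held without each tumor in turn. With library-size scaling, which moves the level of all genes, Tfrc and Mkrn1 had adjusted p values by limma of 0.0502 and 0.0938. None of these 4 genes is restricted to red cells.

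Among platelet markers, 1 of 13 tested passed, beside 1.4% of all genes called higher. This was Gp9, a subunit of the von Willebrand factor receptor. It had 17.9 in N1, 7.23 in N2, 9.14 in N4, 10.6 in N5 and 7.70 in N6, and 64.8 in T1, 48.1 in T2, 53.2 in T4, 53.8 in T5 and 86.3 in T7. Every D30 tumor was above every CTRL tumor, with a log2 difference of 2.47 (SE 0.376, limma adjusted p = 0.00482), and 2.51 without T5 (limma adjusted p = 0.00415). Its partner subunits were not called, with Gp1ba at 18.8 to 40.2 in CTRL and 11.7 to 85.9 in D30, Gp5 at 1.05 to 15.9 and 1.16 to 33.2, and Gp1bb at 0 in all tumors. Platelets in the blood of these tumors were not measured.

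**Figure D5:**
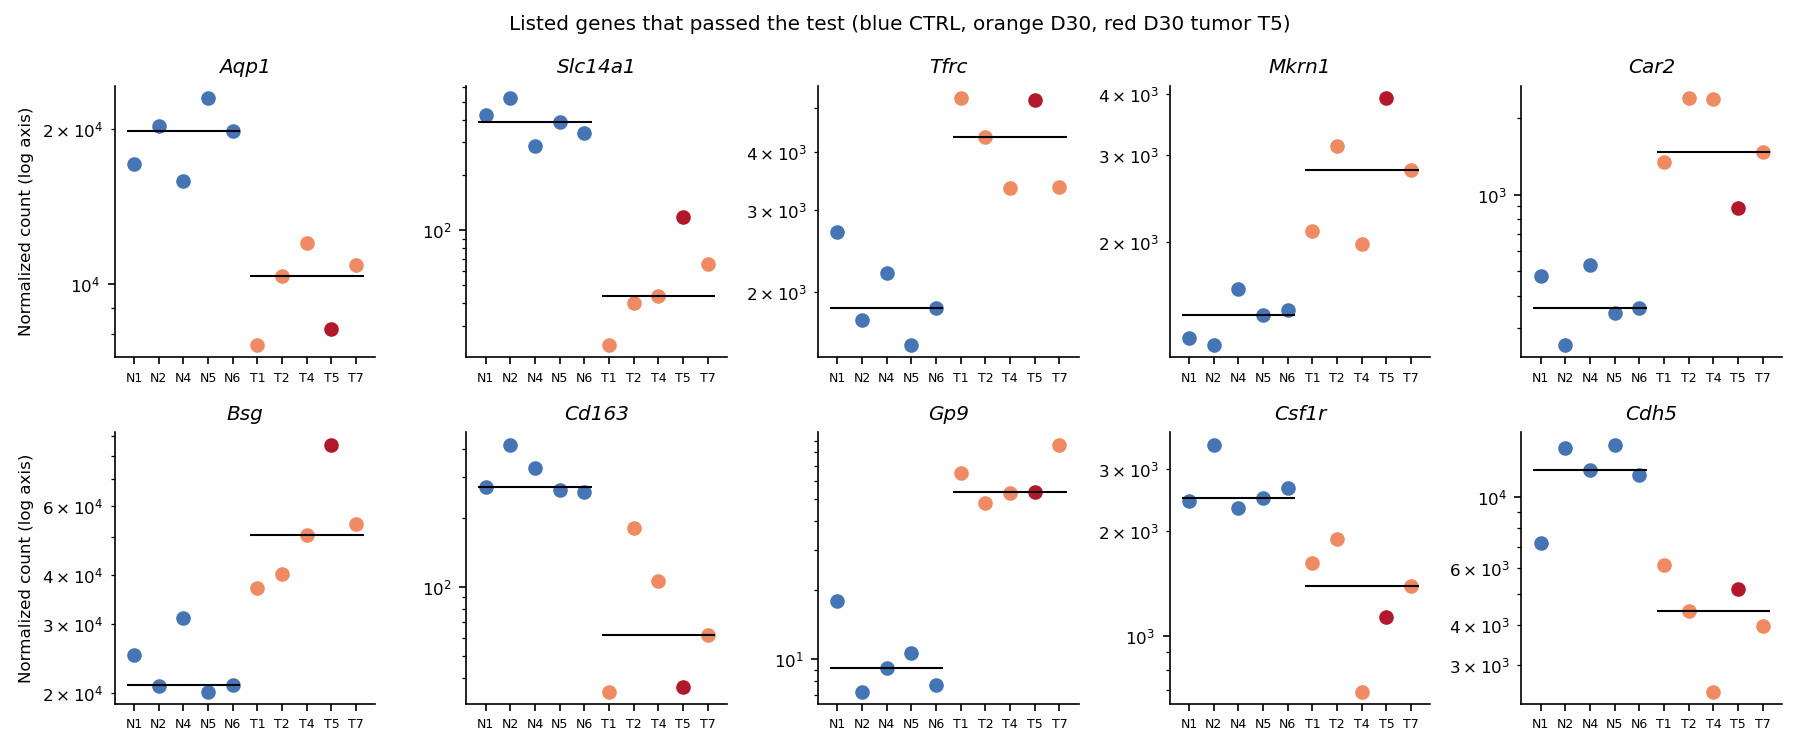
Normalized count (log axis) in each tumor of the 10 listed genes that passed the test between D30 and CTRL, with lines at the group medians. The groups do not overlap in any panel, and T5 is highest for Mkrn1 and Bsg and lowest of its group for Car2.

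No gene of the neutrophil, B cell and plasma cell, T cell, carcinoma epithelial, fibroblast and pericyte, or acinar lists was called, and none of the 15 heme synthesis genes was. The 14 neutrophil markers had a median log2 difference of 1.60. Without T5 it was 1.15, and Mmp8 was called (1 of 14, beside 3.54% of all genes). The median was 0.04 for heme synthesis, -0.30 for the red cell membrane, -0.07 for erythroid regulators, 0.17 for late erythroid transcripts and -0.04 for heme clearance, against -0.06 for all genes. The cell type lists had wider medians, with -4.50 for acinar, -1.71 for B cell and plasma cell, -0.86 for T cell, -0.86 for fibroblast and pericyte, -0.72 for macrophage, -0.63 for endothelial, 0.38 for platelet and 0.62 for carcinoma epithelial markers. The carcinoma epithelial markers summed to 263463 to 391722 normalized counts in CTRL and 405998 to 597406 in D30, with no overlap of the groups. Of the 10, 8 had an unadjusted p under 0.05 by limma, beside 17.3% of all genes. The same held for 7 of the 10 fibroblast and pericyte markers. All 10 of the latter were below 0, as were 13434 of all 24560 genes. These levels moved beside the lower Cd163, Aqp1 and Cdh5, and their part in those results was not tested.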

How the data were processed

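RNA from 10 tumors was sequenced as strand-specific paired libraries. Per the labels and the study's methods, reads were trimmed with Trim Galore and aligned with STAR 2.7.0e. The processing notes name GRCm39, the methods name hg38, and the counting settings are not given in the sources used here. The deposited signal is a normalized count per gene, made by the authors by dividing reads by 1 size factor per tumor. All values (100.0%, within 0.01 reads) were whole multiples of 1 step per tumor, and the recovered reads ranged from 29192261 to 42122304 per tumor. Columns with the letter N were taken as CTRL and those with T, as the remaining letter, as D30.

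Identifiers were named by GENCODE M21 (GRCm38, 94.1% of 55359), which also gave positions. limma 3.58.1 (R 4.3.3) with a mean-variance trend was run on log2(normalized count + 1) for 24560 genes with a mean of at least 1, with Benjamini-Hochberg adjustment and calls at 0.05. It was tested on simulated data. On this scale the fold change of a low gene comes out too small. Exact permutation tests covered all 252 assignments (two-sided, smallest possible p 0.00794). Correlations used 100000 resamples. On the recovered reads, edgeR 4.0.16 and DESeq2 1.42.0 were the alternatives. Other alternatives were scaling by library size, with or without the adult globins, or upper quartile, added counts of 0.5 and 5, no filter, a filter at 10, and each tumor left out.

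The genes and lists were chosen with earlier results of these data known. Named were all members, in each list the 3 genes with the smallest p and any called, and the 10 genes closest to Hbb-bs with a mean of at least 10. Other genes given for T5 were named after their values were seen. Some listed genes are not reported here by name.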

Additional observations from a re-analysis of the deposited data

Results flagged for a closer look

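Among the 61 named genes, 122 tests were made, 1 for each gene and group. In 29, the gap of a tumor to its nearest neighbor, divided by the range of its group of 5, was above 0.71. About 1 in 20 groups pass that limit by chance if values are normally distributed. The values were untransformed normalized counts, for which the chance rate was not determined. T5 was the highest D30 tumor in 17 of the 29, T4 in 5, and 5 were in CTRL. The 10 genes most like Hbb-bs were picked for that likeness, so their flags are not independent of it.

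For the erythroid genes, the gap of T5 was 0.946 of the D30 range for Hba-a1, 0.939 for Hba-a2, 0.965 for Hbb-bs, 0.962 for Hbb-bt, 0.975 for Alas2 and 0.875 for Slc4a1. For the genes most like Hbb-bs it was 0.924 for Cryab, 0.946 for Stbd1, 0.784 for Cox7a1, 0.963 for Ghrh, 0.922 for Dusp1, 0.885 for A930035D04Rik, 0.886 for Pim3, 0.946 for Map3k6, 0.924 for Jakmip3 and 0.828 for Yif1b. The neutrophil collagenase Mmp8 had a gap of 0.809, with 989 normalized counts in T5 and 244 in T4.

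T4 was far above the other D30 tumors in the acinar genes Prss2 (0.999), Cpa1 (0.986) and Ctrl (0.725), in Epcam (0.864) and in Spic (0.829). T2 was so for the B cell gene Ms4a1 (0.861) and T7 for Vwf (0.730). In CTRL, N1 was far above for Fap (0.840) and Spic (0.925) and far below for Map3k6 (0.789), N2 was far above for Csf1r (0.727), and N6 for Ctrl (0.729).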

How the results depend on the processing

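No paired analysis was possible because no column could be tied to a numbered replicate in the labels. The 0 of 6 erythroid genes called held under all 9 alternatives that gave a count and without each tumor; by DESeq2 it covers only Slc4a1. With 1 tumor left out, the difference of Hba-a2 ran from -0.0575 (without T5) to 1.34 and that of Alas2 from -0.412 (without T5) to 0.930, the sign turning without T5. Over all genes, 678 were called, 600 to 865 under the alternatives other than DESeq2 (1957), and 279 (without N2) to 1573 (without T4) with 1 tumor left out; without N5, N6 and T7 they were 340, 332 and 433. In the erythroid and heme lists 7 genes were called, 17 by DESeq2 and 2 (without N2) to 13 (without T4) with 1 tumor left out. In the cell type lists 3 were called, 14 by DESeq2 and 2 to 15 (without T4). The cause of these shifts was not tested. Without T5 and T7, r with Hbb-bs was 0.54 for Hba-a1, 0.22 for Hba-a2, 0.84 for Hbb-bt, 0.0334 for Alas2 and -0.44 for Slc4a1. With group means removed, r kept its sign. Summing each near-identical pair gave log2 differences of 1.17 for the α and 1.08 for the β pair, neither called. Slc4a1, at 2 reads in T4, is limited by depth.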
